A study of Mus musculus with 39 samples.

Results

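Genes that encode testis forms of energy-metabolism proteins, and the glucose transporter gene Slc2a3, were followed through postnatal testis development in mice with altered Insl3. The 8 genes were taken by symbol from the deposited count tables: Slc2a3, Aldoart1, Gapdhs, Pgk2, Eno4, Ldhc, Pdha2 and Cyct. All were present among the 21561 Ensembl genes listed in both tables. Slc2a3 also had at least 290 counts in every gubernaculum library of the series, so the term testis form is used loosely for it below. In a developing testis, glucose enters germ cells through facilitative transporters, is broken down to pyruvate and lactate by the glycolytic enzymes, and pyruvate then feeds mitochondrial respiration. Meiotic and post-meiotic germ cells replace several of the usual enzymes in this chain with testis forms, many of them retrogenes that stay active while the X chromosome is silenced in meiosis. Several of the encoded proteins are built into the sperm flagellum, where glycolysis supplies ATP for motility.

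RNA was sequenced from whole testes of male C57BL/6J mice at postnatal day (P) 8, P23 and P40, with 3 biological replicates in each of 8 groups and 24 testis libraries in all. Wild-type (WT) mice were the controls. INSL3-KI mice are homozygous for a minke whale INSL3 cDNA placed at the mouse Insl3 locus in place of the mouse coding sequence, under the mouse promoter and with the neo selection cassette removed. INSL3-KO mice are labelled as Insl3 knockouts. How that line was made is not described in the study's methods, and KO testes were sampled at P8 and P23 only. INSL3 is the Leydig cell hormone that drives the gubernacular phase of testis descent, and the comparisons ask how testes of mice with the cetacean hormone, or with the knockout, differ from WT testes as spermatogenesis proceeds.

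Library totals were about 33000200 to 42629270 counts. Levels are given as CPM, the counts scaled to a common library size, after one trimmed-mean (TMM) scaling of all 24 libraries, and a gene was called when edgeR gave an adjusted p under 0.01 with a fold change of at least 2. Insl3, the check of the genotype labels, was at 63.5 to 79.7 CPM in P8 WT testes and 823 to 1023 CPM in the older WT testes. It was at 0.380 to 12.5 CPM in all INSL3-KI testes and at 0 to 0.115 CPM in P23 KO testes, while the P8 libraries labelled KO held 13.5 to 17.9 CPM. The last values, 613 to 906 counts, were below every P8 WT library but above every P8 INSL3-KI library, so Insl3 transcript was present in libraries whose label gives a knockout, and every direction drawn from them below rests on that label. In all, 3 INSL3-KI libraries stood apart from their group. Replicate 2 at P8 had a summed spermatocyte marker level of 2534 CPM beside 722 and 553 CPM in the other two. Replicate 3 at P23 and replicate 1 at P40 were each other's nearest library (Spearman rho = 0.990 across genes), with summed spermatocyte levels of 3123 and 3188 CPM. From the files, an exchange or mixing of these 2 libraries cannot be told apart from a likeness between the animals, so results are also given without each. The P23 WT libraries and all KO libraries were counted in a separate table from the others, so in the comparisons of P23 INSL3-KI with WT, of P8 KO with WT, of INSL3-KI with KO and of P23 WT with the other WT ages, table and group cannot be told apart. In bulk tissue, fewer cells of a type and less RNA per cell cannot be told apart either.

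On GRCm38 (GENCODE M21), Ldhc (chr7:46861203-46878142, plus strand) and Gapdhs (chr7:30729775-30743681, minus strand) share a chromosome, and the other genes lie on chromosomes of their own: Pgk2 (chr17:40207015-40208640, minus), Eno4 (chr19:58943425-58971421, plus), Aldoart1 (chr4:72850583-72852634, minus), Pdha2 (chr3:141210004-141212355, minus), Cyct (chr2:76353942-76360450, minus) and Slc2a3 (chr6:122727809-122801640, minus). All are annotated as protein coding. Gapdhs overlaps antisense genes on the plus strand (Tmem147os and Gm26935), Eno4 overlaps Hspa12a, and Slc2a3 overlaps Gm4482. Whether counting used strand is not given in the sources used here, so reads of these overlapping partners cannot be told apart.

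The windows just upstream of the RefSeq start sites are shown for Gapdhs, Eno4 and Cyct, which had log2 fold changes of -8.35, -2.93 and -1.73 in P40 INSL3-KI testes, together with a short stretch of the Ldhc window. RefSeq (GRCm38.p6) held windows for 6 of the 8 genes, and Aldoart1 and Slc2a3 are named only. Windows are the 150 bases before the RefSeq start site, 5′ to 3′ on the gene's strand, and capitals mark motif matches on either strand. The Gapdhs window lies at chr7:30743682-30743831, the Eno4 window at chr19:58943275-58943424, the Cyct window at chr2:76360454-76360603 and the Ldhc stretch at chr7:46861202-46861221. The RefSeq start lies 60 bases inside the GENCODE gene for Ldhc and 31 bases inside it for Pgk2, so the Ldhc stretch, apart from its first base, is transcribed in the GENCODE model.
Gapdhs: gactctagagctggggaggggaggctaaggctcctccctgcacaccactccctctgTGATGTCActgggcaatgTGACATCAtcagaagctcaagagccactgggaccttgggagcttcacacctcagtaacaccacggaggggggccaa
Eno4: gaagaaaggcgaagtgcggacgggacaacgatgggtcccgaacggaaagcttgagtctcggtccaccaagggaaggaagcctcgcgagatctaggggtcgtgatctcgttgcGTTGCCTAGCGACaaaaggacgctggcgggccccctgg
Cyct: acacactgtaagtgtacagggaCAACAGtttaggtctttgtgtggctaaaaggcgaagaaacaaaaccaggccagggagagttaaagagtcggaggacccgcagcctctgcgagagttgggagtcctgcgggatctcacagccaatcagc
Ldhc: TGACGTtgactttgTGACGT

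The Ldhc stretch holds the cAMP-response half-site TGACGT 2 times, at bases -61 to -56 and -47 to -42 from the RefSeq start site, and 5.15% of the 32851 RefSeq promoter windows of the same length hold at least 1 match. Gapdhs has 2 matches to the spaced palindrome TGANNTCA, at -94 to -87 and -76 to -69, a motif found in 8.37% of windows. Pgk2 has 1 match to it, at -27 to -20 from the RefSeq start, which is inside the GENCODE gene. Eno4 carries an X-box, the capitals in its window, at -38 to -26, a motif that 0.861% of windows hold. CAACNG, a MYB-type core, occurs in Cyct at -128 to -123 and in Ldhc at -25 to -20 and -8 to -3, and in 19.1% of windows. The Pdha2 window held none of these letters. The motifs were picked after the sequences had been seen, TGACGT and TGANNTCA can overlap each other, and a match is a description of letters only.

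In WT testes, all 8 genes rose from P8 to P23. Ldhc, the testis lactate dehydrogenase subunit, went from 0.449, 0.543 and 0.536 CPM at P8 to 6029, 5982 and 5975 CPM at P23 (log2 fold change 13.47, SE 0.12). Gapdhs, the sperm glyceraldehyde-3-phosphate dehydrogenase of the fibrous sheath, went from 1.02, 1.199 and 1.10 CPM to 3006, 3031 and 2935 CPM (log2 fold change 11.36, SE 0.11). P8 and P23 libraries did not overlap for either gene, and edgeR gave adjusted p = 3.4e-09 for each. All 8 genes passed the test as higher, beside 32.8% of all genes tested. The median log2 fold change over the 8 genes was 9.06, and over all genes tested it was 0.01.

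The starting level at P8 differed among the genes. Slc2a3, the high-affinity glucose transporter GLUT3 that neurons also use, was already at 18.6, 19.5 and 18.7 CPM in P8 WT testes. Pdha2, the autosomal form of the pyruvate dehydrogenase E1 alpha subunit, was at 4.99, 4.89 and 3.29 CPM, and Cyct, the testis cytochrome c, at 5.34, 5.001 and 3.43 CPM. Eno4, an enolase of the sperm tail, was at 2.65, 1.67 and 1.73 CPM. These genes with reads at P8 had the smaller log2 fold changes to P23, 6.76 (SE 0.08) for Slc2a3, 6.16 (SE 0.17) for Pdha2, 5.66 (SE 0.18) for Eno4 and 4.18 (SE 0.17) for Cyct. Pgk2, the retrogene that replaces X-linked Pgk1 in meiotic cells, had 9 counts over the P8 WT libraries against 111719 at P23, a ratio of 21370 with a 95% exact interval of 11257 to 46736. Aldoart1, an aldolase A retrogene of spermatids, had 1 count at P8 against 16997 at P23, a ratio of 29261 with an interval of 5251 to 1155833. These intervals cover counting error only.

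P40 WT testes kept the pattern, with all 8 genes higher than at P8 in edgeR's test and 31.9% of all genes called higher. The log2 fold change from P8 ran from 3.34 for Cyct to 12.86 for Ldhc among the genes with enough P8 counts, and the count ratios were 13360 for Pgk2 (95% exact interval 7038 to 29219) and 20467 for Aldoart1 (3673 to 808461). Between P23 and P40, none of the 8 was called, while 4.64% of all genes were. Cyct went from 80.6, 87.6 and 87.1 CPM at P23 to 57.0, 44.8 and 42.9 CPM at P40 (log2 fold change -0.78, SE 0.10). Gapdhs differed by -0.75 (SE 0.08), Pgk2 by -0.62 (SE 0.09) and Ldhc by -0.56 (SE 0.08). For these 4 genes edgeR's adjusted p was 5.6e-05 to 0.00036, with changes under the 2-fold threshold. Slc2a3 was at 2126, 2090 and 2076 CPM at P23 and 2214, 2312 and 2382 CPM at P40, a log2 difference of 0.18 (SE 0.06). Beside these values, the summed elongating spermatid list was at 25512 to 27112 CPM at P23 and 15228 to 19027 CPM at P40 in WT, and its part in the result was not tested.

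**Figure D1:**
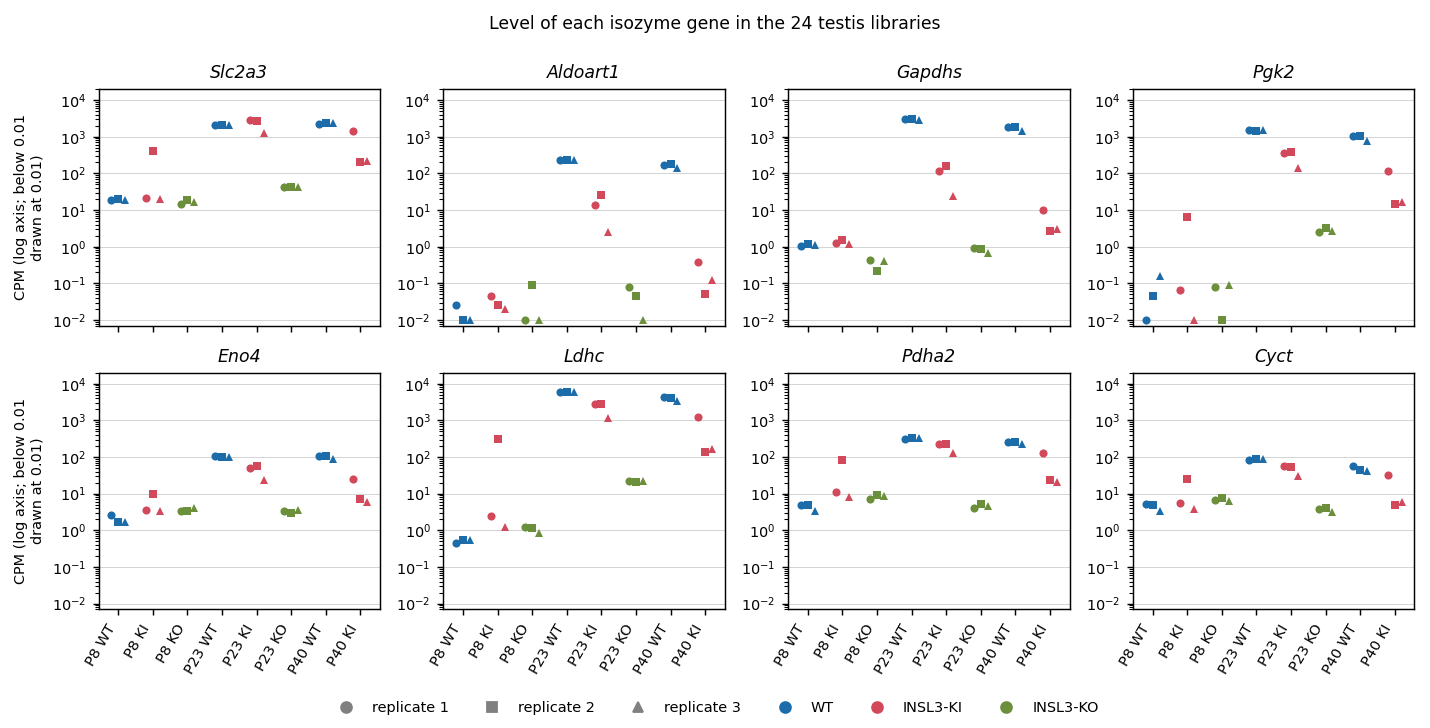
Level of each of the 8 genes in every testis library, in CPM on a log axis, with values below 0.01 drawn at 0.01. Colours give the genotype (KI, INSL3-KI and KO, INSL3-KO) and marker shapes the replicate. P23 and P40 WT libraries sit far above P8, P23 KO libraries sit far below P23 WT for every gene, and Gapdhs and Aldoart1 show the widest gaps between INSL3-KI and WT at P40.

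Levels can be compared between genes per transcript length, as FPKM, the fragments of a gene scaled by its length and by library size. In P40 WT testes, Ldhc was the most abundant at 1902 ± 151 FPKM (SD, n = 3), followed by Gapdhs at 792 ± 72.0, Slc2a3 at 442 ± 34.2 and Pgk2 at 383 ± 43.2 FPKM. The Slc2a3 libraries (412 to 479 FPKM) and the Pgk2 libraries (333 to 408 FPKM) were neighbours with little space between them. Pdha2 stood at 69.1 ± 2.39, Aldoart1 at 51.6 ± 4.83, Cyct at 47.9 ± 6.46 and Eno4 at 26.7 ± 2.04 FPKM. Aldoart1 and Cyct did not differ beyond their spread. At P23 the order was the same for Ldhc (2644 ± 31.0 FPKM) and Gapdhs (1261 ± 22.8 FPKM), but Pgk2 (566 ± 13.2 FPKM) was above Slc2a3 (337 ± 10.6 FPKM).

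At P8 the 8 genes were low in all genotypes with the exception of INSL3-KI replicate 2. In that library Ldhc was at 307 CPM, beside 2.47 and 1.23 CPM in the other INSL3-KI libraries and 0.449 to 0.543 CPM in WT. Slc2a3 was at 397 CPM there and at 21.4 and 20.7 CPM in the other two. Pdha2 (83.8 CPM, beside 11.2 and 8.17) and Pgk2 (6.53 CPM, beside 0.0661 and 0) were also high in it, whereas Gapdhs was not (1.57 CPM, beside 1.30 and 1.21). Aldoart1 held 1 or 2 counts in each INSL3-KI library. None of the 6 genes with enough counts to be tested was called in INSL3-KI versus WT, beside 6.29% of all genes, with log2 fold changes from 0.36 (Gapdhs, SE 0.30) to 7.69 (Ldhc, SE 2.39, edgeR adjusted p = 0.046). Without INSL3-KI replicate 2, again none was called, beside 5.62% of all genes, and the log2 fold change was 1.93 for Ldhc (SE 0.44), 1.22 for Pdha2 (SE 0.26) and 0.23 for Slc2a3 (SE 0.10). DESeq2 called Pdha2 and Eno4 higher with all libraries in. The summed spermatocyte list was at 553, 722 and 2534 CPM in the P8 INSL3-KI libraries, the last in replicate 2. In P8 WT testes it was at 100 to 167 CPM, and its part in these values was not tested.

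In P8 testes labelled KO, none of the 6 tested genes was called against WT, beside 13.8% of all genes. Pdha2 was at 7.39, 9.24 and 8.56 CPM, above the 3 WT libraries, with a log2 fold change of 0.96 (SE 0.21) and an edgeR adjusted p of 0.0065, under the fold threshold. Without WT replicate 1, Pdha2 and Eno4 were called higher. Gapdhs was at 0.430, 0.222 and 0.395 CPM, below the 3 WT libraries, with a log2 fold change of -1.63 (SE 0.39, edgeR adjusted p = 0.011). The summed spermatocyte list was at 758 to 766 CPM in these KO libraries and 100 to 167 CPM in WT, and its part in the Pdha2 values was not tested. Against the testes labelled KO, INSL3-KI testes at P8 had 1 of 6 genes called higher, Gapdhs (log2 fold change 1.97, SE 0.36, edgeR adjusted p = 0.0078), beside 2.76% of all genes. That call was lost in edgeR with the replicate number as a block, without the filter on low counts and without any 1 of INSL3-KI replicates 1 and 3 or the KO replicates.

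In P23 INSL3-KI testes Gapdhs, Aldoart1 and Pgk2 fell against WT, and the other genes were between 38.2% and 108% of the fitted WT level without being called. Gapdhs was at 119, 157 and 24.8 CPM, against 3006, 3031 and 2935 CPM in WT, a log2 fold change of -4.90 (SE 0.69, edgeR adjusted p = 0.0029). Aldoart1 was at 13.4, 25.2 and 2.59 CPM, against 233, 227 and 230 CPM, a log2 fold change of -4.07 (SE 0.74, edgeR adjusted p = 0.0062). Pgk2 was at 350, 373 and 141 CPM, against 1542, 1478 and 1519 CPM, a log2 fold change of -2.39 (SE 0.38, edgeR adjusted p = 0.0040). Every INSL3-KI library lay below every WT library for these 3 genes, and replicate 3 was the lowest each time. The 3 of 8 genes called lower stand beside 11.8% of all genes, and none was called higher, beside 8.81%. Over all genes, 1966 were called lower and 1462 higher, which became 1450 and 3607 with library size only and 2562 and 71 with Sertoli scaling. The median log2 fold change was -1.32 over the 8 genes and 0.08 over all genes tested.

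The remaining genes showed smaller differences at P23. Ldhc was at 2822, 2841 and 1185 CPM, less than the 5975 to 6029 CPM of WT, with a log2 fold change of -1.39 (SE 0.38, edgeR adjusted p = 0.022). Eno4 (50.3, 57.1 and 23.5 CPM against 102 to 109 CPM) gave -1.25 (SE 0.31). Both genes had every INSL3-KI library below WT but missed the adjusted threshold. Cyct at 58.7, 54.2 and 29.9 CPM, against 80.6 to 87.6 CPM in WT, gave -0.83 (SE 0.25). Pdha2 at 222, 231 and 127 CPM, against 318 to 327 CPM in WT, gave -0.73 (SE 0.24). Every INSL3-KI library was below WT for Cyct and Pdha2 too. Slc2a3 was at 2789, 2724 and 1279 CPM, 2 libraries above and 1 below the WT range of 2076 to 2126 CPM, with a log2 fold change of 0.11 (SE 0.33). Its sign depended on the scaling, at 0.56 with library size only and -1.01 with scaling on the Sertoli list, settings that put the median of all genes at 0.55 and -1.19.

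Which genes were called at P23 depended on single libraries. Without INSL3-KI replicate 3, which had a summed Sertoli list of 3060 CPM beside 1610 and 1278 CPM, 4 of 8 genes were called lower, beside 15.8% of all genes, with Ldhc added at -1.08 (SE 0.05, edgeR adjusted p = 9.0e-07). Without INSL3-KI replicate 1, or without any 1 WT library, none of the 8 passed. In the same libraries, the round spermatid list had 8 of 9 genes called lower and the elongating spermatid list 8 of 10. None of the 10 spermatocyte markers was called in either direction, and the part of these cell types in the isozyme values was not tested.

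**Figure D2:**
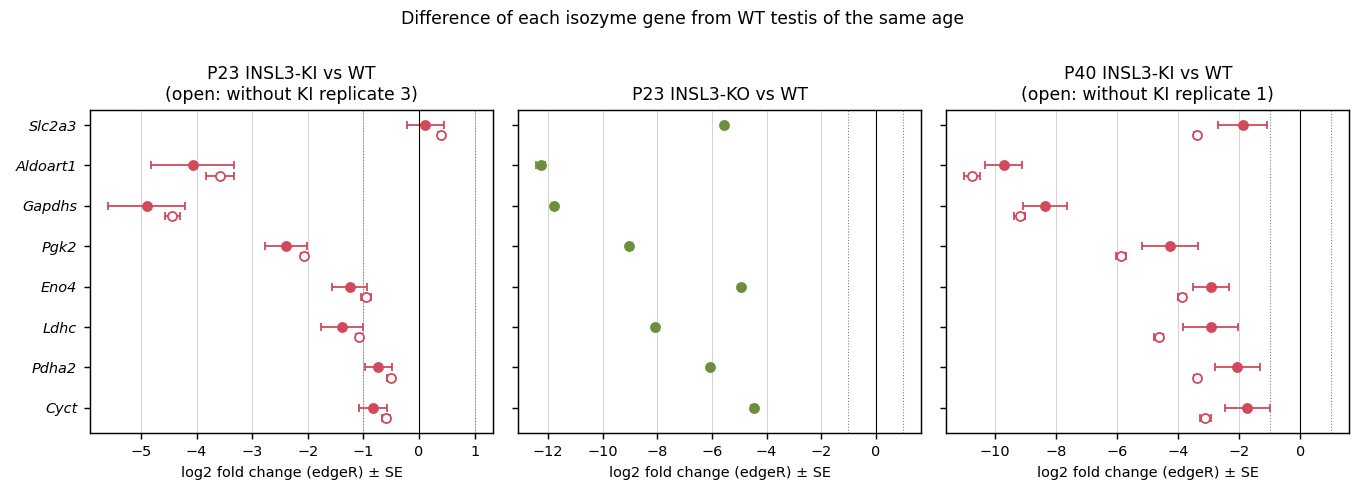
Log2 fold change from WT of the same age for each gene, with bars of 1 SE from edgeR, in P23 INSL3-KI, P23 INSL3-KO and P40 INSL3-KI testes. The horizontal scales differ among the panels, dotted lines mark a 2-fold change, and open points leave out the INSL3-KI library that stood apart. Gapdhs and Aldoart1 lie farthest from 0 in all 3 panels, and Slc2a3 lies at 0.11 in P23 INSL3-KI but at -5.57 in P23 INSL3-KO.

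In P23 KO testes all 8 genes fell, beside 33.4% of all genes called lower and 31.1% called higher. The 5584 genes called lower and 5199 higher became 4537 and 7188 with library size only and 13373 and 71 with Sertoli scaling, and the 8 genes were called lower in both. Gapdhs was at 0.907, 0.874 and 0.677 CPM and Pgk2 at 2.51, 3.15 and 2.69 CPM, log2 fold changes of -11.78 (SE 0.08) and -9.03 (SE 0.08). Aldoart1 had 5 counts over the 3 KO libraries against 16997 in WT, 5630-fold lower with a 95% exact interval of 2412 to 17340. Ldhc was at 22.1, 20.4 and 21.7 CPM (log2 fold change -8.08, SE 0.05). For each of the 8 genes edgeR's adjusted p was at most 4.9e-11. The drops were smaller for Pdha2, Cyct, Slc2a3 and Eno4. Pdha2 was at 4.03, 5.31 and 4.55 CPM (-6.06, SE 0.09) and Cyct at 3.87, 4.07 and 3.12 CPM (-4.47, SE 0.10). Slc2a3 was at 41.8, 42.5 and 43.8 CPM (-5.57, SE 0.05). Eno4, at 3.31, 3.01 and 3.56 CPM, was 4.93 log2 units below WT (SE 0.08).

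From P8 to P23 in testes labelled KO, 3 of the 7 genes tested were called higher, beside 12.0% of all genes. They were Ldhc (log2 fold change 4.31, SE 0.15), Slc2a3 (1.37, SE 0.08) and Pgk2, for which 8 counts at P8 and 342 at P23 gave a ratio of 49.6 with a 95% exact interval of 24.9 to 116. Pdha2 (-0.84, SE 0.16) and Cyct (-0.89, SE 0.17) differed in the other direction by less than 2-fold, with edgeR adjusted p = 0.00040 and 0.00043. Eno4 was at 3.32, 3.42 and 4.15 CPM at P8 and 3.01 to 3.56 CPM at P23, with overlapping libraries. In the P23 KO libraries the summed spermatocyte list was at 291 to 309 CPM against 5688 to 5861 CPM in WT, the elongating spermatid list at 5.49 to 6.88 CPM, and the Sertoli list at 4752 to 4832 CPM against 714 to 739 CPM.

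INSL3-KI and INSL3-KO testes differed at P23 for all 8 genes, each of which was higher in INSL3-KI, beside 25.2% of all genes. The log2 difference was 6.74 for Ldhc (SE 0.42), 6.69 for Pgk2 (SE 0.46), 6.93 for Gapdhs (SE 0.78) and 5.73 for Slc2a3 (SE 0.36). Pdha2 gave 5.38 (SE 0.30), Eno4 3.73 (SE 0.37) and Cyct 3.69 (SE 0.31), and the 1436 against 5 counts of Aldoart1 gave a ratio of 329 (95% exact interval 141 to 1015). The INSL3-KI libraries held 492, 850 and 94 Aldoart1 counts, a spread that the interval does not cover. For each gene edgeR's adjusted p was at most 0.0013.

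At P40, Aldoart1, Gapdhs, Pgk2 and Eno4 fell in INSL3-KI testes, 4 of 8 genes beside 22.1% of all genes called lower and 25.6% called higher. Aldoart1 had 15, 2 and 5 counts (0.393, 0.0501 and 0.122 CPM), against 172, 178 and 138 CPM in WT, a log2 fold change of -9.70 (SE 0.61, edgeR adjusted p = 0.00014). Gapdhs was at 10.02, 2.61 and 3.03 CPM, against 1857, 1870 and 1467 CPM, a log2 fold change of -8.35 (SE 0.71, edgeR adjusted p = 0.00032). Both genes were far below WT in every INSL3-KI library, also in replicate 1. Pgk2 was at 118, 14.3 and 16.6 CPM, against 1043, 1043 and 789 CPM, a log2 fold change of -4.26 (SE 0.92, edgeR adjusted p = 0.0063). Eno4 was at 25.9, 6.97 and 5.99 CPM, against 104, 109 and 87.2 CPM, a log2 fold change of -2.93 (SE 0.58, edgeR adjusted p = 0.0045). For both, replicate 1 was the highest of the INSL3-KI libraries.

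The same library carried most of the spread in the other genes. Ldhc was at 1236, 136 and 164 CPM against 4283, 4191 and 3406 CPM in WT (log2 fold change -2.94, SE 0.91, edgeR adjusted p = 0.025). Slc2a3 was at 1441, 201 and 216 CPM against 2214 to 2382 CPM (-1.88, SE 0.80). Neither gene was called, although no INSL3-KI library reached the WT range. Pdha2 at 132, 23.7 and 21.1 CPM (-2.06, SE 0.73) and Cyct at 32.5, 4.76 and 5.77 CPM (-1.73, SE 0.74) likewise lay below the 227 to 262 CPM and 42.9 to 57.0 CPM of WT without passing, with edgeR adjusted p = 0.038 and 0.069.

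Over all genes at P40, 3690 were called lower and 4264 higher, which became 2458 and 6583 with library size only and 12481 and 22 with Sertoli scaling. Leaving out INSL3-KI replicate 1 changed the calls of the 8 genes. All 8 genes were then lower, beside 31.0% of all genes, from -3.11 for Cyct (SE 0.18) and -3.39 for Slc2a3 (SE 0.08) to -10.73 for Aldoart1 (SE 0.25, with 7 counts left in INSL3-KI), and edgeR's adjusted p was at most 1.3e-06. Leaving out any 1 of the other 5 libraries left Gapdhs and Aldoart1 called and no other gene. DESeq2 called all 8 lower with every library in. The round spermatid list had 9 of 9 genes called lower at P40 and the elongating spermatid list 10 of 10, while the summed spermatocyte list was at 3188 CPM in replicate 1, 726 CPM in replicate 2 and 570 CPM in replicate 3, against 5595 to 5833 CPM in WT. The Sertoli list was higher for 11 of 11 genes and the macrophage list for 7 of 7. The part of these cell types in the isozyme values was not tested.

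**Figure D3:**
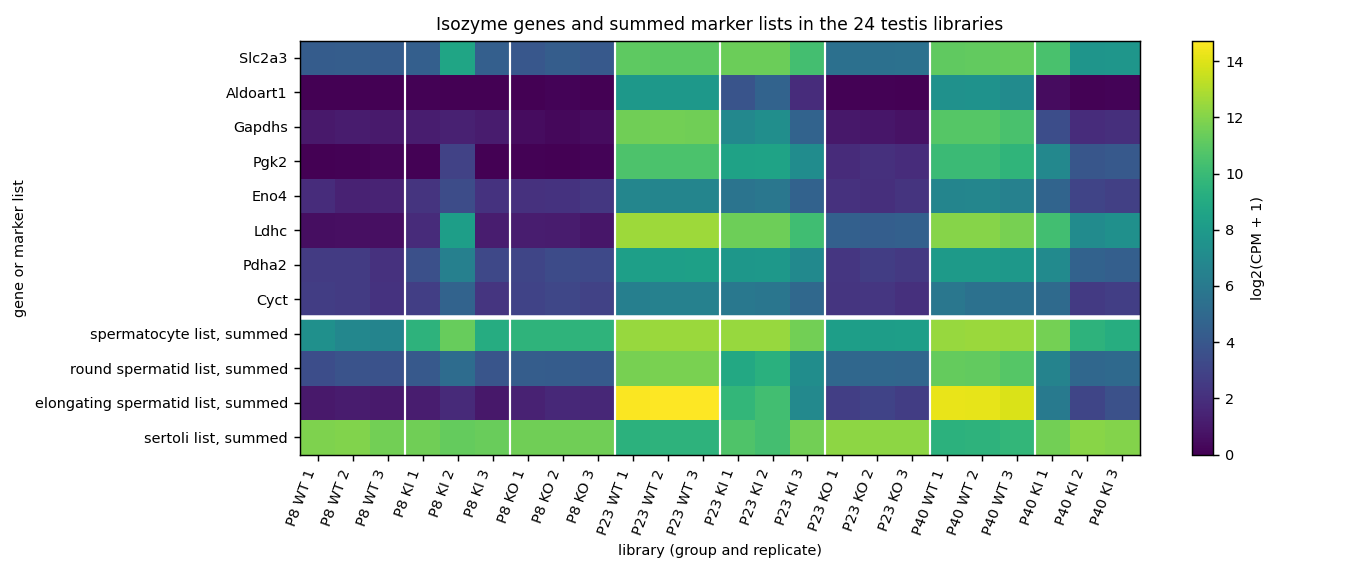
Log2(CPM + 1) of the 8 genes in each testis library (upper rows) above the summed CPM of the spermatocyte, round spermatid, elongating spermatid and Sertoli marker lists on the same scale (lower rows). Columns are libraries, grouped by age and genotype (KI, INSL3-KI and KO, INSL3-KO). P8 KI 2 is the P8 column with high Ldhc and Slc2a3, and P23 KI 3 and P40 KI 1 resemble each other in most rows.

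Within INSL3-KI testes, Aldoart1 and Gapdhs rose from P8 to P23, 2 of 8 genes beside 5.70% of all genes. Gapdhs had a log2 fold change of 6.07 (SE 0.75) and Aldoart1 a count ratio of 450 (95% exact interval 175 to 1654, counting error only), each with edgeR adjusted p = 0.0086. Without P8 replicate 2, all 8 genes were called higher, beside 11.9% of all genes, from 3.17 for Cyct (SE 0.40) to 10.12 for Ldhc (SE 0.76) among the 6 genes with more than 3 counts left at P8. Pgk2 and Aldoart1 had 3 counts each in the 2 remaining P8 libraries, so no fold is given for them. Without P8 replicate 1 or 3, or P23 replicate 1 or 2, none was called. From P23 to P40 none of the 8 genes was called in INSL3-KI testes, with every library in or without any 1. Over all genes, edgeR called 0 of 16328 (0%), with 7615 genes at an unadjusted p under 0.05. P23 replicate 3 and P40 replicate 1, each other's nearest library, stand on opposite sides here. Leaving out 1 library keeps the other, so these fits cannot answer whether the 2 were exchanged or mixed. DESeq2 called 875 genes lower and 301 higher in that comparison. Gapdhs had a log2 difference of -4.28 (SE 0.90) and Aldoart1 one of -6.18 (SE 1.13), with edgeR adjusted p = 0.099 for both.

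Whether the INSL3-KI effect itself differed between P40 and P8 was tested as an interaction in edgeR. For 6 of 8 genes the effect was lower at P40, beside 22.5% of all genes. In P8 WT testes Ldhc had 18 to 24 counts per library and Gapdhs 41 to 53, and Pgk2 and Aldoart1 had fewer. A drop could hardly show at P8 for Pgk2 and Aldoart1, so for them the test cannot tell a changed effect from a floor at P8. For Ldhc and Gapdhs the counts limit how large a drop could show at P8. Gapdhs had 10 to 22 counts in the P8 libraries labelled KO, so a drop of that size could show. The difference in log2 fold change was -8.79 for Gapdhs (SE 0.63, adjusted p = 5.7e-06) and -11.42 for Aldoart1 (SE 1.77, adjusted p = 0.00031) in edgeR. Aldoart1 had 1 count over the P8 WT libraries and 4 over the P8 INSL3-KI libraries, so the size of its difference depends on the prior count. Eno4 gave -4.54 (SE 0.79), Pdha2 -5.15 (SE 1.28), Pgk2 -9.26 (SE 2.48) and Ldhc -10.71 (SE 2.61). Pgk2 had 9 counts over the P8 WT libraries and 3, 258 and 0 in the P8 INSL3-KI libraries. Its difference thus rests on replicate 2 and on the prior count, and on the prior count alone without that library. Cyct (-3.18, SE 1.10) and Slc2a3 (-4.95, SE 1.56) did not pass, with edgeR adjusted p = 0.026 and 0.017. Without P8 INSL3-KI replicate 2, 5 genes were called, beside 19.0% of all genes, and Pgk2 was the gene lost. The difference was then -4.97 for Ldhc (SE 1.13), -3.39 for Pdha2 (SE 0.88), -3.92 for Eno4 (SE 0.71) and -3.37 for Pgk2 (SE 3.06), while Gapdhs stood at -8.71 (SE 0.67). Only Gapdhs, Eno4 and Aldoart1 passed when any 1 P8 WT library was left out, or P40 WT replicate 1 or 2, or P40 INSL3-KI replicate 2 or 3, and all 8 passed without P40 INSL3-KI replicate 1.

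The widely expressed counterparts of the 8 genes moved in both directions, while their summed level was lower in INSL3-KI and KO testes. The sum was 2856 to 3129 CPM in P40 WT testes and 2030 to 2166 CPM in P40 INSL3-KI testes. At P23 it was 3331 to 3469 CPM in WT, 2154 to 2452 CPM in INSL3-KI and 2721 to 2799 CPM in KO testes. At P40, 5 of 12 rose in INSL3-KI testes and 1 fell, beside 25.6% of all genes called higher and 22.1% lower, with a median log2 fold change of 1.10 beside 0.09 over all genes. The genes that rose were Cycs (2.11), Pdha1 (2.01), Slc2a1 (1.98), Ldhb (1.91) and Pgk1 (1.45), and the gene that fell was Eno3 (-1.75), the muscle enolase. Ldha, at -2.22 (SE 0.61, edgeR adjusted p = 0.016), was not called. In P23 KO testes 7 of 12 rose and 2 fell, beside 31.1% and 33.4% of all genes, and Ldha was among those that fell (-3.74, SE 0.05), while at P23 none of the 12 was called in INSL3-KI testes. These counts are relative to the TMM scaling, and scaling on library size only or on the Sertoli list moved the median of all genes at P40 to 0.70 or -2.27. Transcripts of Pgk1 share 51.7% of their 100-base windows with other annotated genes, those of Cycs 22.6%, of Gapdh 20.9% and of Eno1 20.4%. The counts of these counterparts are therefore uncertain. Of the 8 genes followed here, 7 share 0.164% or less and Eno4 shares 2.46%.

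The share of each testis form in the summed FPKM of the form and its counterparts describes the balance of their transcripts. In P40 WT testes it was 99.5% ± 0.0543 (SD, n = 3) for Slc2a3 beside Slc2a1, 97.6% ± 0.425 for Pgk2 beside Pgk1, 96.0% ± 0.924 for Pdha2 beside Pdha1, 79.6% ± 2.84 for Cyct beside Cycs and 75.0% ± 1.65 for Ldhc beside Ldha and Ldhb. Aldoart1 (15.9% ± 0.883, beside Aldoa and Aldoc) and Eno4 (9.83% ± 0.388, beside the other enolases) held the smaller part of their sums. Other testis forms, such as Aldoart2 and Ldhal6b, did not enter these sums, so the shares are not shares of a whole step. By counts in place of FPKM, which ignores length, the Cyct share was 45.1% ± 4.46 at P40 and 45.7% ± 0.610 at P23 in WT. Among the counterparts, Pgk1 shares 51.7% of its windows with other genes, Cycs 22.6% and Eno1 20.4%. If such reads went uncounted, the Pgk2, Cyct and Eno4 shares are too high. How they were counted is not given, and the SD does not cover this. In P40 INSL3-KI testes the 3 libraries gave 69.5%, 19.0% and 19.5% for Pgk2 and 97.5%, 79.5% and 83.3% for Slc2a3. Pdha2 ranged from 32.6% to 78.8%, Ldhc from 15.9% to 56.8% and Cyct from 7.66% to 43.5%, and each INSL3-KI library was below the WT libraries for all of these genes. In P23 KO testes the means were 37.0% ± 1.53 for Slc2a3, 7.78% ± 0.994 for Pdha2, 3.11% ± 0.509 for Cyct, 2.57% ± 0.356 for Pgk2 and 2.21% ± 0.0537 for Ldhc. No share is given for Gapdhs, because the Gapdh row held only 0.643 to 35.3 FPKM across the libraries and 5.26, 35.3 and 6.39 FPKM in the 3 P23 KO replicates.

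**Figure D4:**
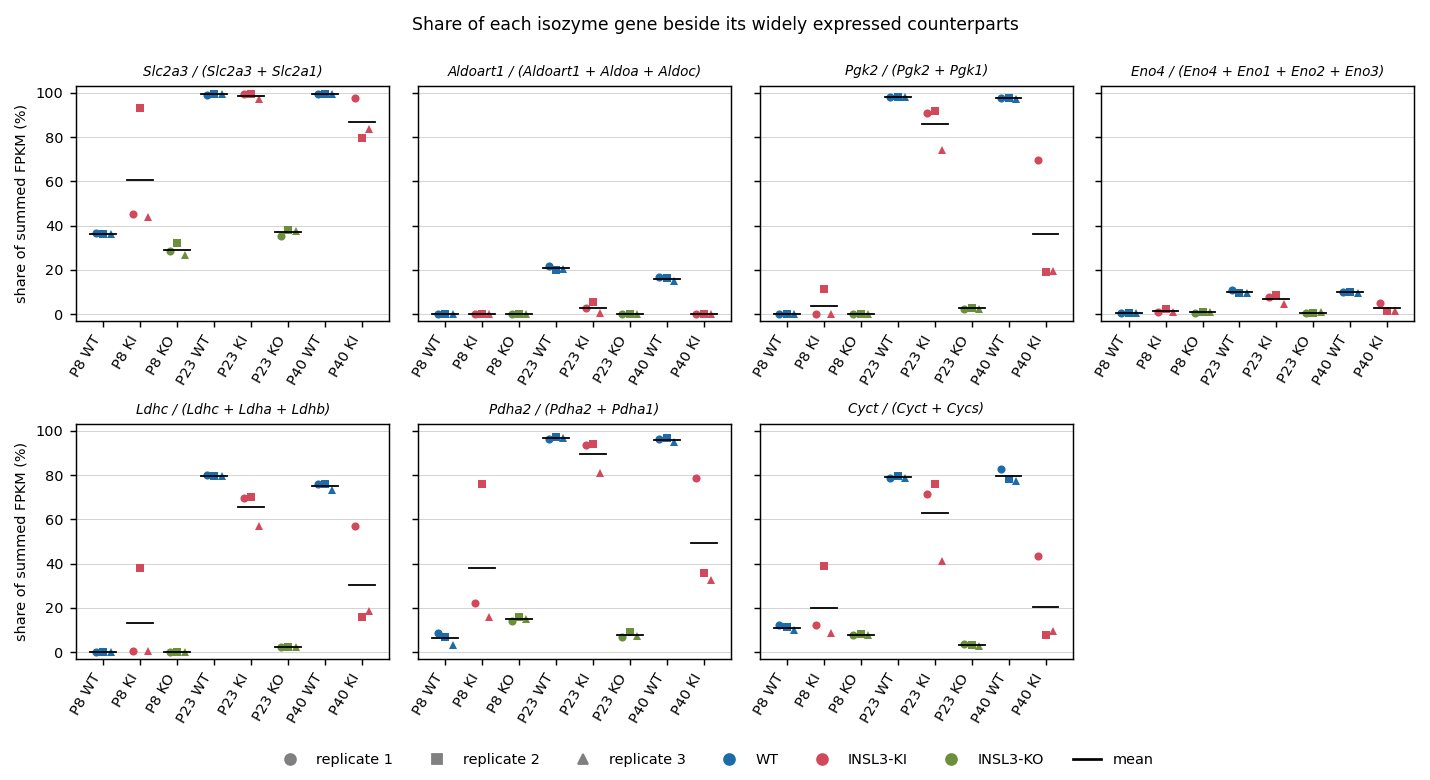
Share of each testis form, in percent, of the summed FPKM of that form and its widely expressed counterparts in each testis library, with Gapdhs left out. Points are libraries, lines are group means, and KI and KO stand for INSL3-KI and INSL3-KO. Slc2a3, Pgk2, Pdha2, Cyct and Ldhc made up most of the FPKM summed with these counterparts in P23 and P40 WT testes (Cyct, by counts, 45.7% and 45.1%). P40 INSL3-KI replicate 1 lies above the other 2 INSL3-KI libraries in every panel with a visible share.

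Counts for other genes of the same pathways at P40 stand beside 22.1% of all genes called lower and 25.6% called higher. Among 14 further testis-specific metabolic genes, 6 fell at P40 in INSL3-KI testes and none rose, with a median log2 fold change of -3.22. Oxct2a (-10.28) and Oxct2b (-9.44), near-identical ketone body transferases between which reads may be split, and Acsbg2 (-8.72), an acyl-CoA synthetase, had the largest changes. All 14 fell in P23 KO testes, with a median of -8.32, beside 33.4% of all genes, and 3 of 14 fell in P23 INSL3-KI testes, beside 11.8%. Among 13 other glycolytic genes, 5 fell and 4 rose at P40, led by Hk1, the hexokinase with a sperm form (-5.23, SE 0.31), Gpi1 (-2.44, SE 0.19) and Hk2 (2.17, SE 0.20). In the pyruvate dehydrogenase group 2 of 10 fell and 3 rose, shares near those of all genes, with Pdk2 at -2.47, Pdk1 at 2.08 and Pdp2 at 1.92, which are regulators of the complex that holds Pdha2. Of 13 other sugar and lactate carriers, 2 fell and 5 rose, with Slc16a7, the monocarboxylate transporter MCT2, at -4.89 and the glucose transporters Slc2a2 at 2.41 and Slc2a12 at 2.28. Summed levels of these lists were nevertheless lower. The glycolytic list was at 5534 to 6612 CPM in P40 WT testes and 1831 to 1854 CPM in INSL3-KI testes. The carrier list was at 2800 to 3088 and 693 to 1154 CPM, and the pyruvate dehydrogenase list at 1145 to 1228 and 701 to 871 CPM.

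Across the 24 testis libraries, pairs of the 8 genes had Pearson r of log2 CPM from 0.857 (Ldhc with Aldoart1) to 0.987 (Gapdhs with Aldoart1), which describes libraries that share age and genotype and is given without a test. Among 14542 genes with a mean of at least 1 CPM, the genes most like Aldoart1 were Gzmn, Iqcf4 and Izumo2 (r = 0.996 for each), and those most like Gapdhs were Tssk2, Fam217a and Cnbd2 (r = 0.993 for each). Tssk2 is a testis-specific serine kinase and Izumo2 belongs to the sperm fusion protein family. Ldhc was closest to Stpg4 (r = 0.997), Spata4 (0.997) and Slco6c1 (0.995), Pgk2 to Tekt3, Cmtm2b and Spink2 (0.995 for each), and Eno4 to Srpk1 (0.997), Letm2 (0.997) and Catsper2 (0.996), a subunit of the sperm calcium channel. For Pdha2 the nearest genes were Agbl2 (0.995), Shcbp1l (0.994) and Brdt (0.994), the testis bromodomain protein. Slc2a3 was nearest to Pnma1 (0.997), Tdrd6 (0.995) and Pom121l12 (0.995), and Cyct to Efcab7 (0.992), Rpl10l (0.989) and Hsp90aa1 (0.989).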

How the data were processed

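The study extracted RNA with TRIzol, made mRNA libraries with the Hieff NGS Ultima Dual-mode kit, sequenced paired ends on an Illumina NovaSeq and mapped reads on the BMKCloud platform with HISAT2 to GRCm38, as its methods and the submitters' processing notes state. The HISAT2 version, the counting program, the annotation and the use of strand are not given in the sources used here. The authors deposited unscaled read counts for each gene beside FPKM, scaled by gene length and library size, in 2 tables that list 22036 and 43339 Ensembl genes. The tables were joined on 21561 shared Ensembl genes, which held 94.2% to 97.9% of each testis library. FPKM levels are compared with care across the tables, since the gene lengths implied by counts and FPKM differed between them by a factor of up to 1.09.

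Counts were fitted in edgeR 4.0.16 (R 4.3.3) with TMM scaling, filterByExpr at a minimum count of 10 and the quasi-likelihood test, on the compared groups alone, and p-values were adjusted by Benjamini-Hochberg over all genes tested. The thresholds (adjusted p under 0.01 and fold change of at least 2) follow the study. Each p-value measures the spread between these samples, described as biological replicates. Log2 fold changes of genes with few counts depend on the prior count of 2, so for comparisons of 2 groups in which 1 held 15 counts or fewer the text gives ratios of summed counts with exact 95% intervals. These intervals cover counting error only and not the spread between libraries. The interaction and the fits without a library have no such ratio. The interaction fit held the P8 and P40 WT and INSL3-KI groups. The code was tested on simulated counts with known changes before use. Promoter windows came from RefSeq, loci from GENCODE M21, and read sharing was counted as 100-base transcript windows found in another gene. Alternatives were DESeq2 1.42.0, limma 3.58.1 on log2(FPKM + 1) or log2(FPKM + 0.1), other scalings and filters, a replicate block, 1 fit of all groups and leaving out each library. The text names the 8 genes in every comparison, their counterparts, the 3 genes with the largest called change at P40 in each metabolic list, and the 3 genes most correlated with each of the 8. The 8 genes and all lists were chosen with earlier results of these data known.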

Additional observations from a re-analysis of the deposited data

Results flagged for a closer look

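For 6 of the 8 genes the INSL3-KI effect on testis expression differed between P40 and P8 in edgeR's interaction test. In P8 WT testes Aldoart1 had 0 to 1 counts per library, Pgk2 0 to 7, Ldhc 18 to 24 and Gapdhs 41 to 53. A drop in INSL3-KI testes could hardly show at P8 for Aldoart1 and Pgk2. For them the test cannot tell an effect that changes with age from a floor at P8. For Ldhc and Gapdhs the counts limit how large a drop could show at P8. Gapdhs had 10 to 22 counts in the P8 testes labelled KO, so a drop of that size could show. The difference in log2 fold change was -11.42 for Aldoart1, -10.71 for Ldhc, -9.26 for Pgk2, -8.79 for Gapdhs, -5.15 for Pdha2 and -4.54 for Eno4. P8 INSL3-KI replicate 2, in which Ldhc was at 307 CPM and Pgk2 at 6.53 CPM, entered these values. Without it the difference was -4.97 for Ldhc, -3.39 for Pdha2, -3.92 for Eno4 and -3.37 for Pgk2, which was no longer called, and -8.71 for Gapdhs. Aldoart1 had 1 count in P8 WT and 4 in P8 INSL3-KI testes, so its value depends on the prior count. Pgk2 had 9 counts over the P8 WT libraries and 3, 258 and 0 in the P8 INSL3-KI libraries, so both of its values depend on it too.

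Outside the testis, Slc2a3 was at 30.8, 51.1 and 81.2 CPM in the P23 INSL3-KI gubernaculum, a mean of 54.4 CPM, and each of these libraries was above the WT gubernaculum of that age at 8.75, 9.83 and 16.6 CPM. This difference was not tested. These CPM values are scaled only to each library's counts in the genes of both tables.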

How the results depend on the processing

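Of 1584 log2 fold changes of the 8 genes under alternative settings, 1428 kept their direction and their side of the threshold, 78 lost and 69 gained a call, and 9 changed sign. All 8 genes stayed called in every setting run for P23 KO versus WT, P23 INSL3-KI versus KO and both WT comparisons with P8. The cause of the changes below was not tested. Leaving out the 3 INSL3-KI libraries that stood apart was chosen after seeing the data. Insl3 was detected in the P8 testes labelled KO. Gene counts near 0 at P8 limit what those comparisons can show. The number of the 8 genes called was 2 in DESeq2 and 2 with all groups in 1 fit for P8 INSL3-KI versus WT, 1 in DESeq2, with library size only and with Sertoli scaling for P8 KO versus WT, and 0 at a 4-fold threshold and without a low-count filter for P8 INSL3-KI versus KO. For P23 INSL3-KI versus WT it was 5 in DESeq2 and 1 with Sertoli scaling, and for P40 INSL3-KI versus WT 8 and 7. For INSL3-KI P23 versus P8 it was 0 with Sertoli scaling, 8 with all groups in 1 fit, 7 in DESeq2 and 4 in limma on log2(FPKM + 0.1). All groups in 1 fit gave 3 and DESeq2 2 for INSL3-KI P40 versus P23, and 1 fit gave 1 for KO P23 versus P8. Leaving out 1 library gave 0 to 2 genes for P8 KO versus WT, 0 to 1 for P8 INSL3-KI versus KO, 0 to 4 for P23 INSL3-KI versus WT, 2 to 8 for P40 INSL3-KI versus WT, 0 to 8 for INSL3-KI P23 versus P8 and 3 to 8 for the interaction. Signs changed for Slc2a3 in P8 KO versus WT (0.077 with Sertoli scaling) and in P23 INSL3-KI versus WT (-1.01 with Sertoli scaling, -0.059 to 0.39 with 1 library left out). They also changed for Eno4 in WT P40 versus P23 (0.0042 with library size only, -0.075 to 0.075 with 1 library left out), and in P8 INSL3-KI versus KO for Eno4 (-0.015 to 0.88) and Cyct (-0.51 to 1.15) with 1 library left out.

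Replicate numbers are shared between groups, but in no comparison did every same-numbered pair of deviations correlate above 0.1. Correlations ran from -0.371 to 0.412 over the genotype and age comparisons and the interaction. The main fits did not pair replicates. These values, from 3 replicates per group and with libraries that stood apart, cannot exclude shared litters or processing runs. With the number as a replicate block, Gapdhs was no longer called in P8 INSL3-KI versus KO (0 genes). The block changed the count from 2 to 3 in INSL3-KI P23 versus P8 and from 6 to 4 in the interaction. Over all genes, the block took the calls from 987 to 6 in P8 INSL3-KI versus WT, from 617 to 318 in P8 INSL3-KI versus KO, from 3428 to 1598 in P23 INSL3-KI versus WT, and in INSL3-KI P23 versus P8 from 580 lower and 935 higher to 856 and 1969. Over all settings except leaving out a library, calls ran from 6 to 2161, 318 to 898, 1598 to 5161 and 0 to 5300 in these comparisons, from 7262 to 12503 in P40 INSL3-KI versus WT, from 2299 to 5969 in KO P23 versus P8, from 485 to 806 in WT P40 versus P23 and from 7587 to 11933 in the interaction. Leaving out 1 library gave 0 to 931 calls in P8 INSL3-KI versus WT, 372 to 4073 in P23 INSL3-KI versus WT and 0 to 4535 in INSL3-KI P23 versus P8.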

Other observations

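The gubernaculum libraries lie outside the testis comparisons. In P8 WT gubernaculum replicate 1, Ldhc was at 19.0 CPM, Gapdhs at 9.71 CPM and Pgk2 at 5.03 CPM, and in replicates 2 and 3 Ldhc was at 7.47 and 1.80 CPM. Ldhc was at 0.449 to 0.543 CPM in P8 WT testes and had 0 counts in the P8 gubernaculum labelled INSL3-KO.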
